A study of Mus musculus with 8 samples.

Results

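The imprinted cluster of distal mouse chromosome 7 was followed through 9 of its genes, Igf2, Igf2os, H19, Ins2, Ascl2, Kcnq1ot1, Cdkn1c, Slc22a18 and Phlda2, out of 27179 genes counted in embryonic hearts. The 9 were chosen by symbol and position, with the genotype comparison of these same hearts already known, so their differences between genotypes are given as a description with no p-value. RNA of 8 mouse hearts taken at E10.5 was sequenced. The 3 MOZ KO hearts are Kat6a-/- and had lost both alleles of Kat6a, also called Moz, the gene of a MYST-family enzyme that acetylates histones. The 5 MOZ WT hearts are Kat6a+/+. The labels do not give the litter, day, strain or sex, nor which part of Kat6a is deleted, and name no treatment in either group. All 9 symbols were found in the count table, 7 passed the filter on low counts, and Ins2 and Ascl2 did not.

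An imprinted gene is transcribed mainly from the copy inherited from 1 parent. In the proximal domain, Igf2 and H19 share enhancers, and the insulator protein CTCF binds an unmethylated control region on the maternal copy, which leaves H19 active there and Igf2 active on the paternal copy. In the distal domain, the long noncoding RNA Kcnq1ot1 is made from the paternal copy and silences neighbours such as Cdkn1c, Slc22a18 and Phlda2 on it, so that these are expressed from the maternal copy. In the embryonic heart, IGF2 made by the epicardium is known as a growth signal for the ventricular wall. The counts sum both parental copies, so the allele named for a gene is background and was not measured here.

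Total counts were 30033097, 19911803 and 22082041 in MOZ KO hearts 1 to 3, against 20817852 to 34539787 in the MOZ WT hearts. Kat6a itself had 133 to 141 CPM in MOZ KO hearts and 138 to 156 CPM in MOZ WT hearts, so its total count did not separate the genotypes and does not check the labels. Xist RNA was at 306 and 300 CPM in MOZ WT hearts 4 and 5 and at most 0.372 CPM in the other hearts. Markers are said to rise, fall or pass at an adjusted p under 0.05 in edgeR's quasi-likelihood test. Of all 15086 genes tested, 1.44% passed as higher in MOZ KO and 1.23% as lower. Summed cardiomyocyte markers reached 29432 to 32839 CPM in MOZ KO hearts and 28295 to 30116 CPM in MOZ WT hearts, with 1 of 7 markers, Tnni3, passing as higher in MOZ KO. Of 7 epicardial markers 5 fell, with sums of 298 to 345 CPM in MOZ KO and 422 to 481 CPM in MOZ WT. Of 6 macrophage markers 4 rose, with sums of 17.9 to 25.7 CPM in MOZ KO and 4.70 to 14.7 CPM in MOZ WT, and 2 of 6 endothelial markers rose, with sums of 922 to 968 CPM in MOZ KO and 833 to 946 CPM in MOZ WT. The endothelial list was not uniform: 5 log2 fold changes were above 0 and 1 below. That 1 was Tek, at 150 to 163 CPM in MOZ KO and 166 to 184 CPM in MOZ WT, which did not pass. No erythroid marker of 6 passed, with sums of 2775 to 4658 CPM in MOZ KO and 1995 to 8150 CPM in MOZ WT, and no handling gene of 10 passed, with sums of 250 to 441 CPM in MOZ KO, highest in heart 1, and 223 to 277 CPM in MOZ WT. Whether these shifts bear on the cluster was not tested.

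Igf2os is the member with the largest difference between genotypes among the 7 tested. It is a noncoding RNA transcribed antisense to Igf2, at chr7:142659680-142670356 on the plus strand of GRCm38.p6. It had 55.1, 58.9 and 58.4 CPM (counts scaled to library size) in MOZ KO hearts, against 135, 117, 121, 123 and 126 CPM in MOZ WT hearts. Every MOZ KO heart lay below every MOZ WT heart. The means were 57.5 ± 2.07 CPM in MOZ KO (SD, n = 3) and 124 ± 6.61 CPM in MOZ WT (SD, n = 5), a 2.17-fold lower level in MOZ KO and a log2 fold change of -1.12 ± 0.06 (SE). In these bulk hearts, fewer cells that express a gene and less RNA per cell cannot be told apart. The summed epicardial markers given above were also lower in every MOZ KO heart than in every MOZ WT heart, and their part in the values of Igf2os and Igf2 was not tested.

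Igf2, on the minus strand at chr7:142650768-142666816, encodes the growth factor IGF2. Its level was 5353, 5020 and 5132 CPM in MOZ KO hearts, against 5682, 6231, 5730, 5696 and 5729 CPM in MOZ WT hearts. The groups did not overlap, and MOZ WT heart 2 was the highest. The log2 fold change was -0.17 ± 0.05 (SE), with means of 5168 ± 170 CPM in MOZ KO (SD, n = 3) and 5814 ± 234 CPM in MOZ WT (SD, n = 5). Igf2 did not pass the threshold in edgeR's quasi-likelihood test and passed it with DESeq2 and with limma voom.

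The antisense RNA was lower relative to Igf2 as well. Its share of the summed Igf2 and Igf2os counts was 1.02% in MOZ KO heart 1 (95% Wilson interval 0.971 to 1.07), 1.16% in heart 2 (1.09 to 1.23) and 1.13% in heart 3 (1.07 to 1.19), against 2.31%, 1.84%, 2.08%, 2.11% and 2.16% in MOZ WT hearts 1 to 5. The intervals cover counting error only. All 3 shares in MOZ KO lay below the lowest in MOZ WT, with means of 1.10% ± 0.0735 in MOZ KO (SD, n = 3) and 2.10% ± 0.170 in MOZ WT (SD, n = 5). The libraries keep the strand of the RNA, but whether the counting used it was not given in the sources used here. In GENCODE M21, 98 of the 5337 exonic bases of Igf2os overlap Igf2 exons, 2068 lie in Igf2 introns and 3171 (59.4%) lie outside the Igf2 gene. The counted length of Igf2os was 4778 bases, so these shares need not hold for the bases counted here. Without strand, reads from the shared bases, and intronic reads of the far more abundant Igf2, could not be told apart from Igf2os.

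The RefSeq promoter table (GRCm38.p6) holds 4 start windows of Igf2, each with 250 bases before and 50 after a start, all on the minus strand. They are shown because the first 2 lie inside the Igf2os gene, so that antisense transcription crosses them, while the other 2 lie outside it. Capitals mark the CG dinucleotides, the sites at which DNA methylation acts. Window 1 is at chr7:142666767-142667066, window 2 at chr7:142661222-142661521, window 3 at chr7:142658755-142659054 and window 4 at chr7:142657447-142657746.
Igf2 window 1: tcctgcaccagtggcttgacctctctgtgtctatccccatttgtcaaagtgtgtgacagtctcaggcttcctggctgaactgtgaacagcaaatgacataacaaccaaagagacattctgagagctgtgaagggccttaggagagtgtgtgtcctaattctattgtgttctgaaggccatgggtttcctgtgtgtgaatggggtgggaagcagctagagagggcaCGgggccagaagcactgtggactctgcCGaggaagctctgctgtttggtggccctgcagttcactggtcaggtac
Igf2 window 2: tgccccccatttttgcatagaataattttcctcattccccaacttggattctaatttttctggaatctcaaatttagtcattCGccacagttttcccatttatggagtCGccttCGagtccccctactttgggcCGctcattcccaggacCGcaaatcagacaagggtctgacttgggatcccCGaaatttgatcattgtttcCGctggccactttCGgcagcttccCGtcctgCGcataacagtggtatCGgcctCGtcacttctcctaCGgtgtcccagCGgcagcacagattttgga
Igf2 window 3: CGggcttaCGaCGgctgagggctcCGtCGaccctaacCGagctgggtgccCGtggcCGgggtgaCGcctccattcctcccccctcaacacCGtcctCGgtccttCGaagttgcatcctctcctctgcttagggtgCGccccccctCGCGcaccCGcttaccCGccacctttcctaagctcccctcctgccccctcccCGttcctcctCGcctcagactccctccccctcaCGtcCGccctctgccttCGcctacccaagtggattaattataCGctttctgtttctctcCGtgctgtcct
Igf2 window 4: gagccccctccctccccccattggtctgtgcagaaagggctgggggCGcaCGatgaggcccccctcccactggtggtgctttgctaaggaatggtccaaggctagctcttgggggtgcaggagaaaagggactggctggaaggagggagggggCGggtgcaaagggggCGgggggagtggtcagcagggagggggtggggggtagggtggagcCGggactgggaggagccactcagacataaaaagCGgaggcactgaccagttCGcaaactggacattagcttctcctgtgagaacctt

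Windows 1 and 2, inside Igf2os, hold 2 and 14 CG, and windows 3 and 4 hold 24 and 7. Over all 32851 windows of 300 bases in that table the median is 7 CG. At least 2 CG occur in 85.9% of them, at least 7 in 52.1%, at least 14 in 36.3% and at least 24 in 19.98%. The counts are per gene, so they do not tell from which start Igf2 was transcribed in these hearts.

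**Figure D1:**
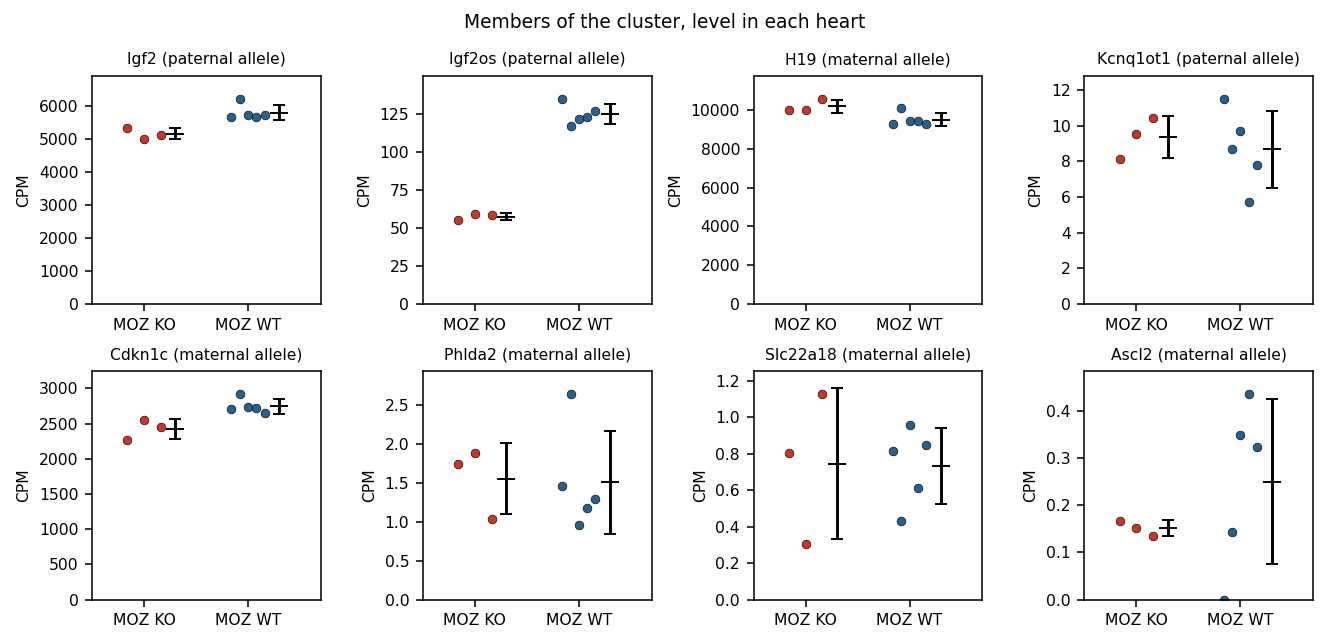
Level of 8 members in each heart, in CPM on linear axes that start at 0, MOZ KO hearts left of MOZ WT hearts; points are hearts and bars are the mean ± SD. Igf2os separates the genotypes most widely, at 55.1 to 58.9 CPM in MOZ KO and 117 to 135 CPM in MOZ WT, and Ins2, at 0 in every heart, is not drawn.

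H19, a long noncoding RNA made from the maternal copy, lies at chr7:142575530-142578146. It had 10011, 9965 and 10563 CPM in MOZ KO hearts, against 9254, 10115, 9427, 9442 and 9263 CPM in MOZ WT hearts. The groups overlapped through MOZ WT heart 2, which was above 2 of the 3 MOZ KO hearts. The log2 fold change was 0.10 ± 0.05 (SE), with means of 10180 ± 333 CPM in MOZ KO (SD, n = 3) and 9500.2 ± 355 CPM in MOZ WT (SD, n = 5). H19 did not pass the threshold in any of the alternatives tried. MOZ KO heart 3, the highest in H19, also had the highest summed level of yolk sac and liver endoderm markers, 17.6 CPM against 3.25 and 4.18 CPM in the other MOZ KO hearts and 1.29 to 4.18 CPM in MOZ WT hearts. Most of the 17.6 CPM was Afp, at 12.1 CPM. Afp had 1.04 and 0.661 CPM in MOZ KO hearts 1 and 2, and at most 0.566 CPM in MOZ WT hearts. None of the 4 tested markers of that list passed. Their part in the H19 value was not tested, and without MOZ KO heart 3 its log2 fold change was 0.07.

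The ratio of Igf2 to H19 counts, which needs no scaling between libraries, was 0.535, 0.504 and 0.486 in MOZ KO hearts, against 0.614, 0.616, 0.608, 0.603 and 0.618 in MOZ WT hearts. Every MOZ KO heart had a lower ratio than every MOZ WT heart. The means were 0.508 ± 0.0247 in MOZ KO (SD, n = 3) and 0.612 ± 0.00624 in MOZ WT (SD, n = 5). A ratio of this kind shows that the 2 RNAs differed unequally between genotypes, and not which of them did.

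**Figure D2:**
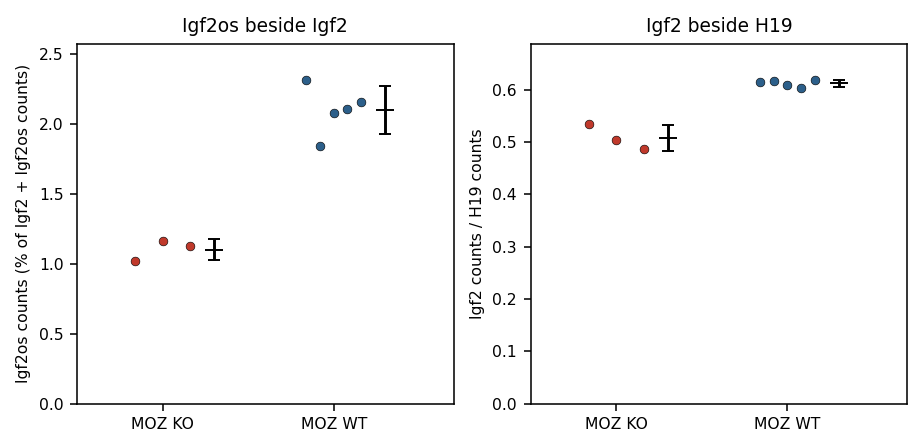
Igf2os as a percentage of Igf2 plus Igf2os counts, and the ratio of Igf2 to H19 counts, for each heart, MOZ KO left of MOZ WT; points are hearts and bars are the mean ± SD. In both measures all 3 MOZ KO hearts lie below all 5 MOZ WT hearts.

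Within genotypes, the relation between Igf2 and H19 levels rested on MOZ WT heart 2. After each group mean was subtracted from log2 CPM, Pearson's r over the 8 hearts was 0.678 (two-sided exact permutation p = 0.0507) and Spearman's rho was 0.667 (two-sided exact permutation p = 0.0831). These p-values are not adjusted, and exact means only that all pairings were enumerated. Centred values were exchanged between genotypes and the centring was not allowed for, so the permutation p-values given for this correlation are approximate. Correlations of the same kind were also computed for Igf2, H19 and Cdkn1c against 12753 genes each, as a description with no p. Without MOZ KO heart 3 and MOZ WT heart 2, the 2 farthest from the median of H19, r was 0.0958 (exact permutation p = 0.9, n = 6). That value kept the group means of all 8 hearts, while the values with 1 heart left out use means of the hearts that remain, so they are not alike. With 1 heart left out, r was -0.0860 without MOZ WT heart 2 (exact permutation p = 0.860), 0.858 without MOZ KO heart 3 (exact permutation p = 0.0278) and 0.921 without MOZ KO heart 1 (exact permutation p = 0.0157).

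H19 and Igf2 each host a microRNA, and the mature sequences are shown to identify what their rows stand for. miR-675 is processed from H19 and miR-483 from an intron of Igf2. In the RefSeq table (GRCm38.p6, minus strand) miR-675-5p is at chr7:142577112-142577133, miR-675-3p at chr7:142577078-142577099, miR-483-5p at chr7:142654968-142654989 and miR-483-3p at chr7:142654932-142654952. Capitals mark the seed, bases 2 to 8, and all 4 seeds differ.
miR-675-5p: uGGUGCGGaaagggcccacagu
miR-675-3p: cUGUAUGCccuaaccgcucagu
miR-483-5p: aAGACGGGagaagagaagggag
miR-483-3p: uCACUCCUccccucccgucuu
The Mir675 row held 0 counts in all 8 hearts, while H19 was among the 2 most abundant genes of each. The Mir483 row held 7, 3 and 4 counts in MOZ KO hearts and 2, 5, 14, 10 and 9 counts in MOZ WT hearts. These are not small RNA libraries, so the rows do not measure the mature microRNAs.

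Cdkn1c, the other abundant member, encodes p57, an inhibitor of cyclin-dependent kinases that holds cells out of the cell cycle. It lies at chr7:143458339-143461059. Its level was 2272, 2548 and 2453 CPM in MOZ KO hearts, against 2706, 2915, 2734, 2715 and 2643 CPM in MOZ WT hearts. The groups did not overlap, and MOZ KO heart 1 was the lowest. The log2 fold change was -0.18 ± 0.05 (SE), with means of 2424 ± 141 CPM in MOZ KO (SD, n = 3) and 2743 ± 102 CPM in MOZ WT (SD, n = 5). Like Igf2, it missed the threshold in edgeR's quasi-likelihood test and passed it with DESeq2 and with limma voom.

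Kcnq1ot1, at chr7:143213111-143296547, had 8.13, 9.56 and 10.4 CPM in MOZ KO hearts, against 11.5, 8.71, 9.69, 5.70 and 7.80 CPM in MOZ WT hearts. All 3 MOZ KO hearts lay within the MOZ WT range, and the log2 fold change was 0.10 ± 0.18 (SE). Its sign turned with the samples used, to -0.10 without the 2 hearts with Xist RNA. Kcnq1ot1 lies wholly inside Kcnq1, a potassium channel gene on the other strand. GENCODE M21 gives it 93092 exonic bases, against the 83437 bases counted here, and 92971 of the 93092 lie in Kcnq1 introns. Without strand in the counting, its count could hold intronic reads of Kcnq1, which itself averaged 11.2 ± 1.60 CPM in MOZ KO (SD, n = 3) and 13.1 ± 1.34 CPM in MOZ WT (SD, n = 5) and did not pass (adjusted p = 0.411 in edgeR's quasi-likelihood test).

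The remaining members were low, and of them Ascl2 and Ins2 were near or under the limit of detection. Phlda2 had 23 to 55 counts per heart and Slc22a18 had 6 to 33. Phlda2, at chr7:143501545-143503145, encodes a pleckstrin homology protein known to limit placental growth, and Slc22a18, at chr7:143473726-143499334, a membrane transporter. Phlda2 had 1.74, 1.88 and 1.03 CPM in MOZ KO hearts, against 1.45, 2.63, 0.957, 1.17 and 1.29 CPM in MOZ WT hearts, a log2 fold change of 0.07 ± 0.33 (SE). Slc22a18 had 0.803, 0.305 and 1.12 CPM in MOZ KO hearts, against 0.812, 0.431, 0.957, 0.609 and 0.848 CPM in MOZ WT hearts, a log2 fold change of 0.02 ± 0.42 (SE). Both overlapped between genotypes, and the sign of each turned under some alternatives, so no direction is given for them.

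Ascl2, at chr7:142966822-142969264, encodes a basic helix-loop-helix factor of the placenta. It had 5, 3 and 3 counts in MOZ KO hearts, against 0, 3, 12, 10 and 8 counts in MOZ WT hearts. Ins2, at chr7:142678656-142679726, encodes insulin and is known to be imprinted in the yolk sac. It had 0 counts in all 8 hearts, which at 3 counts per heart allows up to 0.0870 to 0.152 CPM, for counting error only. A difference in either gene was not detectable at this depth. Of 8 trophoblast markers, Tpbpa, Prl2c2 and Gcm1 had 0 counts in all hearts, and 1 of the 2 tested, Hand1, which the heart also expresses, fell. Over all genes tested, 1.23% passed as lower. The list's sum, 41.4 to 46.2 CPM in MOZ KO and 76.4 to 105 CPM in MOZ WT, was almost wholly Hand1. The other 7 markers summed to 0.903 to 1.12 CPM in MOZ KO and 0.242 to 1.22 CPM in MOZ WT, and the groups overlapped.

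Per kilobase of counted length, the members spanned a wide range of levels. H19 was highest, at 3893 ± 127 CPM per kb in MOZ KO and 3633 ± 136 CPM per kb in MOZ WT. Cdkn1c followed at 1248 ± 72.4 CPM per kb in MOZ KO and 1412 ± 52.6 CPM per kb in MOZ WT, and Igf2 at 1220 ± 40.1 CPM per kb in MOZ KO and 1373 ± 55.3 CPM per kb in MOZ WT. The spreads of those 2 overlapped in both genotypes. Heart by heart, Cdkn1c was above Igf2 in every MOZ WT heart and in MOZ KO hearts 2 and 3. It was below Igf2 in MOZ KO heart 1, at 1170 against 1264 CPM per kb. Igf2os had a level of 12.0 ± 0.434 CPM per kb in MOZ KO and 26.0 ± 1.38 CPM per kb in MOZ WT, and Phlda2 2.11 ± 0.615 CPM per kb in MOZ KO and 2.04 ± 0.892 CPM per kb in MOZ WT. Slc22a18 followed at 0.457 ± 0.254 CPM per kb in MOZ KO and 0.449 ± 0.129 CPM per kb in MOZ WT. Kcnq1ot1 at 0.112 ± 0.0139 CPM per kb in MOZ KO and 0.104 ± 0.0259 CPM per kb in MOZ WT, and Ascl2 at 0.0940 ± 0.0101 CPM per kb in MOZ KO and 0.155 ± 0.109 CPM per kb in MOZ WT, were lowest of the members with counts and lay within each other's spread (SD, n = 3 for MOZ KO and 5 for MOZ WT throughout).

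**Figure D3:**
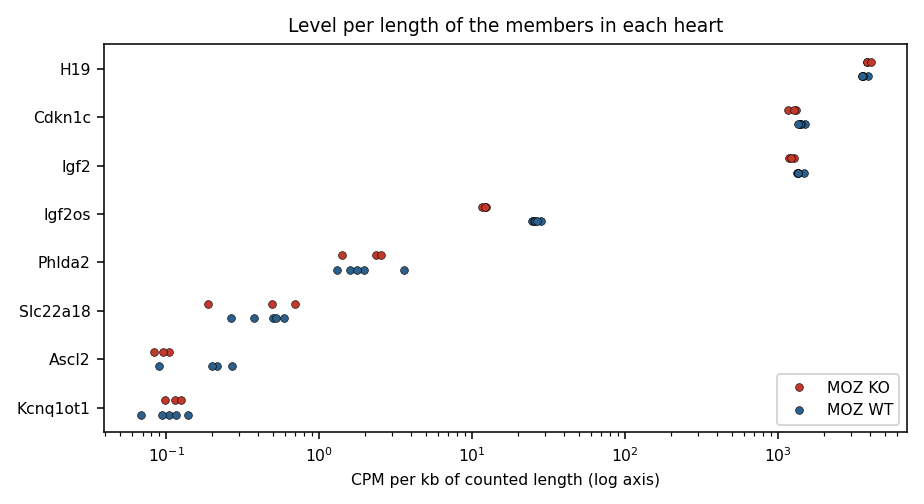
Level of the members with counts, in CPM per kb of counted length on a log axis, for each heart of both genotypes. H19, Igf2 and Cdkn1c stand above 1000 CPM per kb on average and Kcnq1ot1 near 0.1; Ins2 and the Ascl2 value of MOZ WT heart 1 are 0 and cannot be drawn on a log axis.

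H19, Igf2 and Cdkn1c together took 1.73% to 1.83% of all counts in MOZ KO hearts and 1.76% to 1.93% in MOZ WT hearts. By CPM, H19 ranked 1 or 2, Igf2 4 to 6 and Cdkn1c 15 to 25 among all genes across the 8 hearts. Their levels varied little within a genotype. The coefficient of variation of H19 was 3.27% in MOZ KO and 3.73% in MOZ WT, that of Igf2 3.29% in MOZ KO and 4.03% in MOZ WT, and that of Cdkn1c 5.80% in MOZ KO and 3.73% in MOZ WT. In MOZ WT hearts the median over the 67 tested genes with a mean of at least 1000 CPM was 4.48%.

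Of the 7 members tested, 1 passed the threshold, an adjusted p of 0.05 in edgeR's quasi-likelihood test, and it was lower (Igf2os). Over all 15086 genes tested, 2.67% passed in either direction and 1.23% passed as lower. Groups did not overlap for 3 of the 7, Igf2os, Igf2 and Cdkn1c, against 9.59% of all genes tested. Since the members were chosen with this comparison known, nothing is read from these counts. The median log2 fold change was 0.02 over the 7 and -0.00015 over all genes tested. By the allele known to be expressed, the 4 tested maternal members (H19, Cdkn1c, Slc22a18 and Phlda2) ranged from -0.18 to 0.10 with a median of 0.05 and 0 passing, and the 3 tested paternal members (Igf2, Igf2os and Kcnq1ot1) ranged from -1.12 to 0.10 with a median of -0.17 and 1 passing.

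Genes between and next to the 9 members were read to see how far differences extended along the chromosome. They are genes outside the list of 9, and whether any of them is imprinted was not examined here. From 500 kb before H19 to 500 kb after Phlda2, 26 genes that are not members were tested, and 3 passed, all higher in MOZ KO (11.5%), while 1.44% of all genes tested passed as higher. The 3 were among the 8 tested before H19. With all hearts included, none of the 8 tested between members passed, and none of the 10 tested after Phlda2. Differences there were not all small: log2 fold changes ran from -0.22 to 0.94 between members and from -0.81 to 1.48 after Phlda2. The largest, Tnfrsf26, was at 1.48 ± 0.41 (SE, adjusted p = 0.0623 in edgeR's quasi-likelihood test) and averaged 1.06 CPM in MOZ KO and 0.382 CPM in MOZ WT. The median log2 fold change of the 26 was 0.11.

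Tnni2, a fast skeletal troponin I gene at chr7:142441816-142444410, had 60.0, 47.6 and 60.9 CPM in MOZ KO hearts, against 18.2, 17.2, 20.2, 19.1 and 18.99 CPM in MOZ WT hearts. It rose, with a log2 fold change of 1.58 ± 0.08 (SE, adjusted p = 1.06e-10 in edgeR's quasi-likelihood test), and lies 134 kb from the H19 start. Every MOZ KO heart was above every MOZ WT heart. Tnnt3, a fast skeletal troponin T gene at chr7:142498771-142516213 and 61.9 kb from the H19 start, had 22.3, 14.5 and 18.5 CPM in MOZ KO hearts, against 10.1, 11.2, 9.51, 9.92 and 12.3 CPM in MOZ WT hearts. It rose too, by a log2 fold change of 0.81 ± 0.12 (SE, adjusted p = 0.000805 in edgeR's quasi-likelihood test), and the groups did not overlap. Among skeletal muscle markers, Myf5 and Mymk had 0 counts in all hearts and Myod1 at most 0.0479 CPM. Their summed level was 13.8 to 14.5 CPM in MOZ KO and 10.6 to 18.0 CPM in MOZ WT, most of it Actn3. Of the 3 tested, 1, the creatine kinase gene Ckm, rose (1.00 ± 0.22 on the log2 scale, adjusted p = 0.0123 in edgeR's quasi-likelihood test), beside 1.44% of all genes tested. Actn3 (-0.38 ± 0.21, SE) and Tnnc2 (0.25 ± 0.51, SE) did not pass.

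Lsp1, a leukocyte actin-binding protein gene at chr7:142458223-142494868, lies between them. It had 57.5, 56.4 and 62.1 CPM in MOZ KO hearts, against 54.5, 47.3, 44.5, 44.1 and 48.5 CPM in MOZ WT hearts, a log2 fold change of 0.30 ± 0.07 (SE, adjusted p = 0.0187 in edgeR's quasi-likelihood test). The groups did not overlap, but the call was lost without MOZ KO heart 1 (adjusted p = 0.0704), MOZ KO heart 3 (adjusted p = 0.131), MOZ WT heart 3 (adjusted p = 0.0685) or the 2 hearts with Xist RNA (adjusted p = 0.0858). The macrophage markers given above were higher in the same MOZ KO hearts, and their part in the Lsp1 value was not tested. The fourth tested gene of this stretch, Prr33, did not pass.

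**Figure D4:**
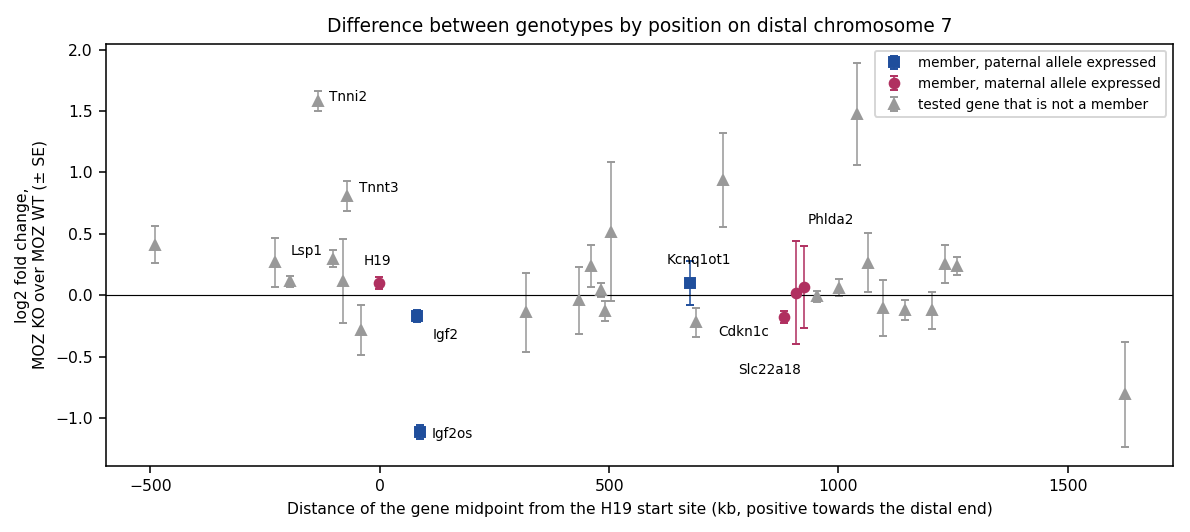
Log2 fold change of MOZ KO over MOZ WT (± SE) for the 7 tested members and the 26 tested genes around them, against the distance in kb of each gene's midpoint from the H19 start. Tnni2 and Tnnt3 stand above 0 on the side before H19 at 1.58 and 0.81, Igf2os stands below 0 at -1.12, and the other members lie between -0.18 and 0.10. Some genes that did not pass also stand far from 0, with wide errors: 4933417O13Rik at 0.94 between members, and Tnfrsf26 at 1.48 and Shank2 at -0.81 after Phlda2.

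The genes nearest to H19 and Phlda2 on their outer sides did not pass in edgeR's quasi-likelihood test. Mrpl23, a mitochondrial ribosomal protein gene and the nearest tested gene before H19, averaged 2.57 CPM in MOZ KO and 3.12 CPM in MOZ WT (-0.28 ± 0.20 on the log2 scale, SE, adjusted p = 0.59). After Phlda2, the histone chaperone gene Nap1l4 averaged 302 CPM in MOZ KO and 304 CPM in MOZ WT (-0.01 ± 0.04, adjusted p = 0.967). Cars, which encodes a cysteinyl-tRNA synthetase, averaged 45.4 CPM in MOZ KO and 43.5 CPM in MOZ WT (0.06 ± 0.07, adjusted p = 0.772).

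Factors known to set or keep imprints showed small differences. Of 26 listed, among them Ctcf, the DNA methyltransferases and Polycomb subunits, 24 were tested and 0 passed in edgeR's quasi-likelihood test, and 0 with DESeq2 or limma voom. An unadjusted p under 0.05 was found for 3 of the 24, beside 14.2% of all genes tested. Their log2 fold changes ran from -0.14 to 0.14 with a median of -0.01. The 2 of smallest p were Zfp445, a zinc finger protein that binds imprint control regions (0.14 ± 0.05, adjusted p = 0.239), and Trim28, its corepressor (-0.10 ± 0.04, adjusted p = 0.274). Dnmt3l and Dppa3 had 0 counts in all hearts.

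Of 8 receptors of IGF2 and binders of its RNA, 0 passed in edgeR's quasi-likelihood test and 2 had an unadjusted p under 0.05, beside the same 14.2% of all genes, with a median log2 fold change of -0.01. DESeq2 and limma voom passed 0 of them. Igf1r, the receptor that transmits the IGF2 signal, had 220, 199 and 177 CPM in MOZ KO hearts, against 174, 172, 176, 172 and 190 CPM in MOZ WT hearts (0.17 ± 0.06, adjusted p = 0.173). MOZ KO heart 3 lay within the MOZ WT range. The insulin receptor gene Insr was similar in size of difference (0.17 ± 0.06, adjusted p = 0.176). MOZ KO heart 1 carried much of both values: without it the log2 fold change was 0.0865 for Igf1r (adjusted p = 0.664) and 0.10 for Insr (adjusted p = 0.653).

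Of 10 partners and targets of p57, 0 passed in edgeR's quasi-likelihood test and 3 had an unadjusted p under 0.05, beside 14.2% of all genes, with a median log2 fold change of -0.05. The cyclin D2 gene Ccnd2 had 1021, 1083 and 919 CPM in MOZ KO hearts, against 960, 764, 829, 815 and 860 CPM in MOZ WT hearts (0.25 ± 0.07, adjusted p = 0.0637). MOZ WT heart 1 overlapped the MOZ KO hearts, and DESeq2 and limma voom both passed Ccnd2. The cyclin E1 gene Ccne1 was at -0.15 ± 0.06 (adjusted p = 0.218).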

How the data were processed

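Hearts were taken at E10.5, total RNA was isolated with a column kit and the TruSeq stranded kit was used for libraries, per the labels' protocols. The tools named are bcl2fastq and featureCounts, with mm10 as the build, per the submitters' processing notes. Versions, the aligner, the annotation and the strand setting were not given in the sources used here. Counts were used as the authors deposited them, whole numbers for each Entrez ID with no normalization. Groups follow the genotype labels. Nothing says that hearts came from separate litters, so p-values cover only the variation among these hearts.

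IDs were matched to GRCm38.p6 RefSeq names and positions (25275 of 27179). Python 3.11.15 with pandas 2.3.3 and scipy 1.17.1 was used beside R 4.3.3 with DESeq2 1.42.0, limma 3.58.1 and edgeR 4.0.16. Genes kept by filterByExpr (15086) were tested with edgeR's robust quasi-likelihood test, MOZ KO against MOZ WT, after scaling by trimmed mean of M values, with Benjamini-Hochberg adjustment over all genes tested and a threshold of 0.05. The biological coefficient of variation was 9.1%, which for abundant genes exceeds counting error at these depths. CPM uses scaled library sizes, and CPM per kb divides by the counted length. The standard error (SE) comes from the test's F statistic. The test was checked on simulated counts.

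The members and gene lists were chosen with earlier results of these data known. Named were all members, passing genes within 500 kb and the nearest tested genes on either side, the 2 listed genes of smallest p where none passed, and the 3 genes most like Igf2, H19 and Cdkn1c. Ckm, Actn3, Tnnc2, Tek, Tnni3, Hand1, Afp, Kcnq1, Prr33, Dusp8, Dhcr7, Tnfrsf26, 4933417O13Rik and Shank2 are named outside that rule, after their values were seen. Alternatives were DESeq2, limma voom with quality weights, 2 other scalings, 2 other filters, no robust moderation, a replicate block, omission of the hearts with Xist RNA, and leaving out each heart. The level of Igf2os relative to Igf2 was added after seeing the data.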

Additional observations from a re-analysis of the deposited data

Results flagged for a closer look

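In 3 of 19 sets of 5 MOZ WT values examined, 1 heart lay far from the other 4, by the gap to its nearest neighbour over the whole range. Chance does this in about 1 in 20 sets. Igf2 was at 6231 CPM in MOZ WT heart 2, against 5682 to 5730 CPM in the other MOZ WT hearts. H19 was at 10115 CPM in the same heart, against 9254 to 9442 CPM in the others. Igf1r was at 190 CPM in MOZ WT heart 5, against 172 to 176 CPM in the others.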

How the results depend on the processing

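Igf2os kept its direction and its call under every alternative tried, at -1.14 to -1.09 with each heart left out, and relative to Igf2 at -0.99 to -0.89. All alternatives drew on these same hearts, whose comparison was known when the members were chosen. A call that was kept or gained therefore speaks only to the processing. The count of passing members was 3 with DESeq2, limma voom or no count filter (Igf2os, Igf2 and Cdkn1c), and 1 to 2 with each heart left out (2 without MOZ WT heart 1, which adds Igf2). Over all genes, 403 passed, and 194 to 496 with each heart left out, lowest without MOZ KO heart 1 and 263 without MOZ KO heart 3. The labels do not say whether a replicate number shared by MOZ KO and MOZ WT hearts pairs them. Deviations from the group means correlated at 0.0659, -0.119 and -0.0538 in same-numbered hearts, and at -0.0445 to 0.0751 in differently numbered ones. With so few hearts these values cannot show or exclude a shared litter. With the number as a block over 6 hearts, 186 genes passed and Lsp1 did not (adjusted p = 0.155). Around the cluster, 2 to 5 genes passed with each heart left out, 5 without MOZ WT heart 2 (Dusp8 and Tnfrsf26 added). Dhcr7, which like Tnfrsf26 lies after Phlda2, passed without MOZ KO heart 3, and Dusp8 also passed with DESeq2. Of the receptors and RNA binders, 0 to 1 passed (Igf1r without MOZ KO heart 3, adjusted p = 0.0311, against 0.664 without MOZ KO heart 1), and of the p57 partners 0 to 1, with 1, Ccnd2, under DESeq2, limma voom and upper-quartile scaling. The sign turned for Kcnq1ot1 (-0.0936 with the block, -0.0974 without the hearts with Xist RNA, -0.017 to 0.22 with each heart left out), Slc22a18 (-0.18 with limma voom, -0.0168 with the block, -0.36 to 0.36 leaving out hearts), Phlda2 (-0.0446 with the block, -0.0757 without the hearts with Xist RNA, -0.0805 to 0.35 leaving out hearts), Nap1l4 (-0.0166 to 0.0172 leaving out hearts) and Cars (-0.0034 to 0.0877). The Igf2 and H19 correlation was 0.681 with DESeq2 size factors (exact permutation p = 0.0475), and ran from -0.0860 without MOZ WT heart 2 to 0.921 without MOZ KO heart 1, with 0.858 without MOZ KO heart 3. The cause of these changes was not tested. Depth limits Ins2, Ascl2, Slc22a18 and Phlda2.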

Other observations

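The genes whose levels followed those of the 3 abundant members most closely within genotypes were found by Pearson's r of log2 CPM with group means removed, over 8 hearts and 12753 other genes. They are a description: the points share libraries and depth, and the best of so many genes are high by selection. For Igf2 they were Efemp2 (0.986), Rusc2 (0.983) and Kctd6 (0.982), for H19 Sertad4 (0.968), Gbe1 (0.961) and Ech1 (0.958), and for Cdkn1c Gm4342 (0.971), Rchy1 (0.963) and Slc27a3 (0.946). Igf2 and H19 were both farthest from the group mean in MOZ WT heart 2, by 0.101 and 0.0912 on the log2 scale. How far these r values rest on that heart was not tested.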
